A study of Mus musculus with 64 samples.

Results

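RNA of 7 genes of the major histocompatibility complex (MHC) class II antigen presentation pathway was followed in mouse colon after injury. The genes, Cd74, H2-Aa, H2-Ab1, H2-Eb1, H2-DMa, H2-DMb1 and Ciita, were taken by symbol from the 23997 symbols measured in a time course and the 23995 measured in a second cohort, and all 7 were found in all 64 libraries. Every library came from colon of C57BL/6 mice, an inbred strain, either from the wound bed left by pinch biopsy, which removes a small piece of mucosa, or from uninjured mucosa of animals given a sham. In the time course there were 41 libraries, with 6 biopsies and 4 shams at 1 h, 5 and 5 at 6 h, 6 and 5 at 3 d, and 5 and 5 at 6 d. The second cohort held 23 libraries at 6 h in 2 arms, meant to set broad-spectrum antibiotics in drinking water against no treatment. Titles and condition entries disagree here: abx stands in titles whose condition is control, and veh in titles whose condition is antibiotic treated. Arms are named by title below, abx-titled with 5 biopsies and 6 shams, veh-titled with 6 of each, and nothing is said of what antibiotics did. The labels state neither age nor sex, and a library is bulk tissue from a small wound that no sort for a cell type preceded.

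Class II molecules display peptides from ingested proteins to CD4 T cells. An alpha and a beta chain pair in the endoplasmic reticulum with the invariant chain, a fragment of which fills the groove until H2-DM exchanges it for peptide in an endosomal compartment. Ciita is the coactivator that sets class II transcription: it binds no DNA itself but docks on RFX, CREB and NF-Y factors assembled on the X and Y boxes of class II promoters. B cells, dendritic cells and macrophages carry class II, and interferon gamma, acting in part through Irf1, induces Ciita in many other cells, intestinal epithelium among them.

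The promoter elements that Ciita depends on are shown first as background, and their part in the levels below was not tested. On mm10, the chains and loading genes lie on chromosome 17, with H2-DMa at chr17:34119541-34139101 (plus strand), H2-DMb1 at chr17:34153072-34160230 (plus), H2-Ab1 at chr17:34257689-34269419 (plus), H2-Aa at chr17:34282744-34287823 (minus) and H2-Eb1 at chr17:34305867-34316674 (plus), as annotated in GENCODE vM21. RefSeq windows (build GRCm38.p6) of 250 bases before to 50 bases after the start were used for 4 of the members, H2-Aa, H2-Eb1, H2-DMa and H2-DMb1. Each window was searched on both strands for the X box core ACNGATG and the Y box core ATTGG, and for an X core followed on the same strand by a Y core after a gap of 10 to 30 bases. Such a pair was found in 52 of 32851 promoter windows (0.158%), whereas 9.85% held an X core and 37.4% a Y core. H2-Eb1 and H2-DMb1 held the pair, and so did H2-Eb2 and H2-DMb2, related class II genes beside them, whereas the windows of H2-Oa and H2-Ob, further chains of the family, did not. Windows of genes outside class II held it too, among them the MHC class I genes H2-D1, H2-M3, H2-M10.4, H2-Q4, H2-Q6 and H2-Q7. The stretches below are plus strand on GRCm38.p6, chr17:34305769-34305822 for H2-Eb1, chr17:34153090-34153144 for H2-DMb1, chr17:34325536-34325589 for H2-Eb2 and chr17:34145119-34145173 for H2-DMb2, and capitals mark the X core and then the Y core.
H2-Eb1: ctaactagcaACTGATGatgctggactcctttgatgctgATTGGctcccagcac
H2-Eb2: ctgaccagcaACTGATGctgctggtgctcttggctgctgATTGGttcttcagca
H2-DMb1: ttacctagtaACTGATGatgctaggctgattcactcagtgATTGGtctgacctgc
H2-DMb2: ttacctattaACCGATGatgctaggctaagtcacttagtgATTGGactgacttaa
The gap between the cores was 22 bases in H2-Eb1 and H2-Eb2 and 23 bases in H2-DMb1 and H2-DMb2. The X core began 88 bases before the RefSeq start of H2-Eb1 and 91 bases before that of H2-DMb1, whose GENCODE span begins upstream of this stretch. The H2-Aa window held 1 match to each core without that arrangement, and neither of 2 H2-DMa windows held an X core. A match is a description of letters and not evidence of binding.

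Levels were deposited as FPKM (fragments per kilobase of transcript, scaled to the mapped fragments of the library), so read counts and depth are unknown. The total FPKM per library lay between 414318 and 522098 for the time course and between 229752 and 266646 for the arms, and the cohorts were therefore tested apart. The labels do not tie each library to its own animal, and the p-values therefore reflect spread among these samples alone, some or all of it possibly technical. Of 8 epithelial markers, the summed level was 3735 to 11724 FPKM over all libraries, against 8.09 to 524 FPKM for 5 leukocyte markers, so the markers of the labelled colon were present throughout. Changes are given as differences in log2(FPKM + 1), a scale that understates those of low genes such as Ciita, and adjusted p-values are from limma over all tested genes (13285 in the time course, 11849 in the arms). All 7 genes were among the tested ones in both cohorts.

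The invariant chain gene was the most abundant of the 7 and the coactivator gene the least. In FPKM, a level per length, the order Cd74, H2-Aa, H2-Ab1, H2-Eb1, the H2-DM genes and Ciita held in 41 of 41 and 23 of 23 libraries. H2-DMb1, which encodes the beta chain of the peptide loader, exceeded its partner H2-DMa in 37 of 41 and 18 of 23 libraries. Its reads may be split with the near-identical neighbour H2-DMb2, so the separate values of the pair are uncertain. Cd74 ranged from 44.9 to 1211 FPKM in the time course, and Ciita from 0.0480 to 12.8 FPKM. After group means were removed, the log2 levels of the 7 genes correlated with r of 0.798 to 0.990 over 41 libraries and 0.784 to 0.995 over 23 libraries (21 pairs of genes each), values that share library, depth and tissue mix and are given as a description.

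**Figure D1:**
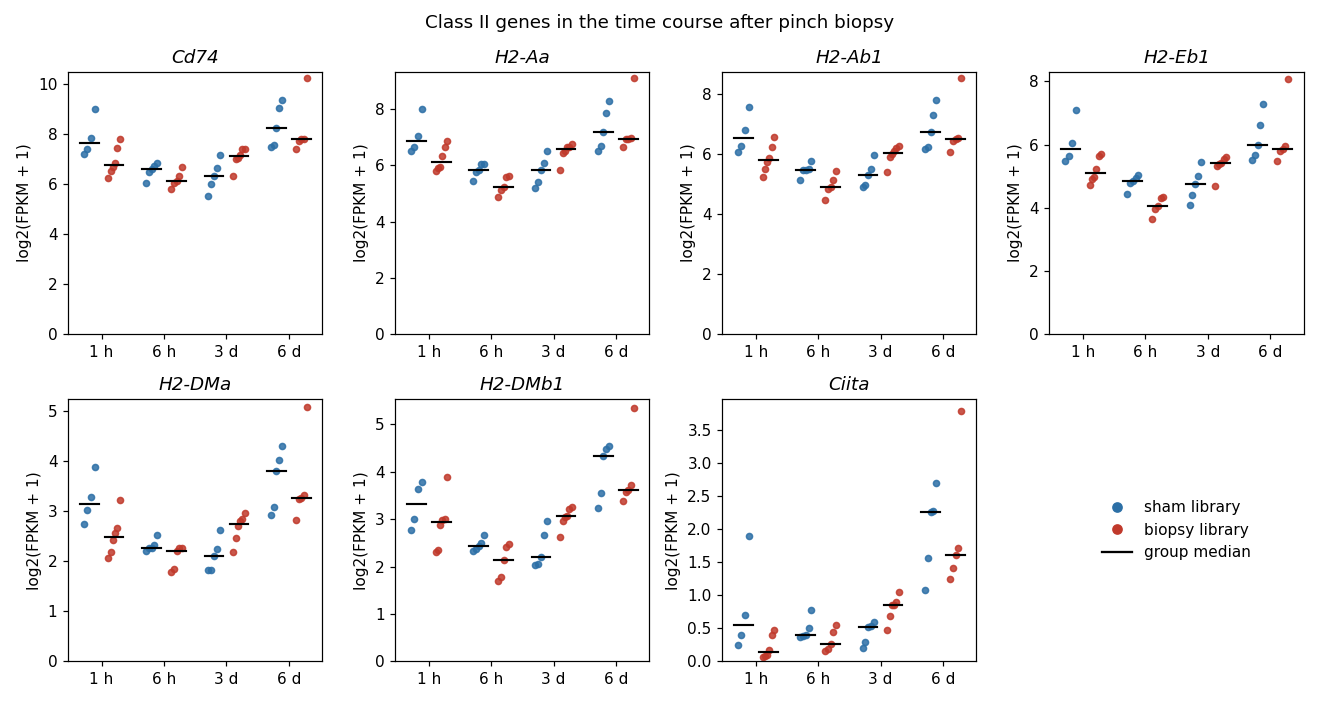
FPKM of the 7 class II genes in the time course, as log2(FPKM + 1) on the y axis, by time after biopsy on the x axis, with 1 point per sham (blue) or biopsy (red) library and a bar at the group median. All 7 genes sit higher in the 6 d shams than in the 6 h shams, and 1 biopsy library at 6 d (Cd74 at 1211 FPKM) stands far above the other 4.

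At 1 h 3 of 7 genes were called lower in the wound bed than in sham tissue, beside 45% of all tested genes. They were H2-Ab1 and H2-Eb1, which encode beta chains, and H2-DMa, the alpha chain of the loader. None of the 7 was called higher. H2-Eb1 was 136, 44.0, 49.1 and 65.6 FPKM in the 4 shams and 25.2 to 50.9 FPKM (median 33.5) in the 6 biopsies. H2-Ab1 was 190, 66.5, 76.5 and 111 FPKM in shams and 37.0 to 93.8 FPKM (median 55.3) in biopsies. H2-DMa was 13.8, 5.70, 7.14 and 8.74 FPKM in shams and 3.16 to 8.39 FPKM (median 4.64) in biopsies. Sham replicate 1 was the highest library for each of these genes, and the highest biopsies overlapped the lower shams.

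The log2 changes were -0.88 ± 0.36 for H2-Eb1 (SE, adjusted p = 0.0374), -0.82 ± 0.34 for H2-Ab1 (adjusted p = 0.0428) and -0.71 ± 0.29 for H2-DMa (adjusted p = 0.0366) in limma. Cd74 (-0.94, adjusted p = 0.0552), H2-Aa (-0.80, adjusted p = 0.057), Ciita (-0.60, adjusted p = 0.105) and H2-DMb1 (-0.40, adjusted p = 0.266) did not pass. Falls were common at 1 h, with 45% of all tested genes called lower (20.7% after median of ratios scaling, which centres the median gene). The median change of the 7 genes was -0.80 beside -0.18 over all tested genes, and -0.58 beside 0.01 after that scaling. Without sham replicate 1, the library with a B cell marker sum of 102 FPKM, no class II gene was called and the changes were -0.56 to -0.24, whereas 5 were called without all 7 libraries rich in B cell genes. Leaving out biopsy 1, 4 or 6 or sham 5, median of ratios scaling and quantile normalization each left none called, and 5 were called without biopsy 3 or 5 or without sham 2 or 4.

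Marker lists of other cells differed in direction at 1 h. Of 11 macrophage and monocyte markers 8 were called lower and none higher, and of 6 tested dendritic cell markers 5 were called lower. So were 4 of 7 fibroblast and endothelial and 1 of 3 tested T cell markers, beside 45% of all tested genes. None of 5 leukocyte and 7 tested B cell markers was called. Called higher were 5 of 7 neutrophil and 6 of 8 epithelial markers, beside 9.38% of all tested genes. Summed macrophage markers were 173 to 280 FPKM in biopsies and 315 to 470 FPKM in shams, and summed dendritic markers 14.2 to 19.3 FPKM and 31.1 to 50.4 FPKM, without overlap in either case. Summed epithelial markers were 10202 to 11724 FPKM in biopsies and 7668 to 8572 FPKM in shams. In bulk tissue, fewer cells of a type and less RNA per cell cannot be told apart, and the part of these shifts in the class II values was not tested.

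At 6 h none of the 7 genes was called in either direction by limma, although 67.5% of all tested genes were (64% of those calls were lower, or 49.5% after median of ratios scaling). At an unadjusted p under 0.05 the only 1 of the 7 was H2-Eb1. Its level was 29.95, 31.9, 20.4, 27.8 and 26.5 FPKM in shams and 14.4, 18.6, 11.5, 15.6 and 19.2 FPKM in biopsies. Every biopsy lay below every sham, which held for 1 of the 7 genes and for 34.7% of all tested genes. The log2 change was -0.75 ± 0.35 (SE, adjusted p = 0.0571). Cd74 was 95.7, 114, 64.7, 105 and 88.1 FPKM in shams and 68.1, 100, 54.0, 64.3 and 79.6 FPKM in biopsies, and the groups overlapped. Its log2 change was -0.35 ± 0.41 (adjusted p = 0.456).

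The other 5 changes at 6 h lay between -0.54 (H2-Aa, the alpha chain that pairs with H2-Ab1) and -0.16 (Ciita). The median change was -0.36 for the 7 genes and -0.12 over all tested genes. H2-Eb1 passed with array weights (adjusted p = 0.0198) and in a fit of the 6 h groups alone (adjusted p = 0.000929), in which 3 class II genes were called, and without sham replicate 3 there was 1 call. Leukocyte markers rose at this time in 5 of 5 genes, as did 7 of 7 neutrophil markers with a median log2 change of 4.35. The macrophage markers were divided, with 5 higher and 6 lower, and B cell markers gave no call in 7 tested. Of all tested genes 24.3% were called higher and 43.2% lower at 6 h.

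At 3 d all 7 log2 changes were above 0, but none was called in limma, and at an unadjusted p under 0.05 there was 1, H2-DMb1. Of all tested genes 42.6% were called in either direction (24.7% of the calls lower, 49.1% after median of ratios scaling). H2-Aa was 35.3, 55.7, 65.7, 89.6 and 41.2 FPKM in shams and 56.1 to 106 FPKM (median 95.0) in biopsies. H2-DMb1 was 3.17, 3.57, 5.36, 6.79 and 3.11 FPKM in shams and 5.21 to 8.63 FPKM (median 7.33) in biopsies. Sham replicates 3 and 4 lay within the biopsy range in both genes, and biopsy replicate 5 lay within the sham range.

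Changes at 3 d were 0.73 ± 0.39 for Cd74 (SE, adjusted p = 0.133), 0.68 ± 0.34 for H2-Aa (adjusted p = 0.104) and 0.65 ± 0.28 for H2-DMb1 (adjusted p = 0.0622). The median was 0.64 for the 7 genes and 0.09 over all tested genes, and 0.53 and -0.01 after median of ratios scaling. The call depended on the shared estimate of spread. When libraries rich in B cell genes were left out, none of which was a 3 d library, the same values passed in 7 of 7 genes (adjusted p = 0.00732 to 0.0184), and a fit of the 3 d groups alone called 5. Without biopsy replicate 5 or without sham replicate 4, 1 was called. Markers of several cell types were called higher at 3 d and none lower, beside 32.1% of all tested genes called higher. These were 9 of 11 macrophage, 7 of 7 neutrophil, 7 of 7 fibroblast and endothelial, 4 of 5 leukocyte, 3 of 6 dendritic and 3 of 8 epithelial markers. B cell (7 tested) and T cell markers (3 tested) gave 0 calls. Macrophage sums were 253 to 427 FPKM in biopsies and 151 to 273 FPKM in shams. The part of these markers in the class II values was not tested.

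At 6 d biopsy and sham could not be separated, and no class II gene was called by limma or passed an unadjusted p under 0.05, beside 44.2% of all tested genes called in either direction (23% of the calls lower, 49.4% after median of ratios scaling). Cd74 was 298, 658, 187, 520 and 179 FPKM in shams and 221, 169, 1211, 212 and 221 FPKM in biopsies. Biopsy replicate 3 exceeded every sham, and the other 4 biopsies lay in the lower part of the sham range or just below it. The 7 log2 changes lay between -0.14 ± 0.41 (Cd74) and 0.02 ± 0.35 (H2-Eb1), with a median of -0.04 beside 0.11 over all tested genes. With standard errors of 0.28 to 0.41, these values do not show that the groups were alike.

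For the change of the biopsy effect from 6 h to 3 d, the count of called class II genes depended on the scaling. The difference of the effects was higher at 3 d in 4 of 7 genes, beside 41.2% of all tested genes called higher (19.1% after median of ratios scaling). In log2 units it was 1.35 ± 0.49 for H2-Eb1 (SE, adjusted p = 0.0199), 1.22 ± 0.49 for H2-Aa (adjusted p = 0.0345), 1.16 ± 0.47 for H2-Ab1 (adjusted p = 0.0363) and 1.01 ± 0.41 for H2-DMb1 (adjusted p = 0.0379) in limma. Cd74 at 1.08 (adjusted p = 0.108), H2-DMa at 0.78 (adjusted p = 0.0951) and Ciita at 0.54 (adjusted p = 0.295) did not pass. The median was 1.08 for the 7 genes and 0.19 over all tested genes. After median of ratios scaling none was called, with a median of 0.83 beside -0.01, and leaving out single libraries gave 1 to 4 calls, with 1 call without biopsy 3 d replicate 2, sham 3 d replicate 1 or 5, biopsy 6 h replicate 4 or sham 6 h replicate 2 and 2 calls without biopsy 3 d replicate 6, biopsy 6 h replicate 5 or sham 6 h replicate 1.

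No class II gene was called for a change of the effect from 1 h to 6 h, where 46.9% of all tested genes were called (35.9% of the calls lower, 46.1% after median of ratios scaling), or from 3 d to 6 d, where 1.84% were, and none passed an unadjusted p under 0.05 in either. The median difference was 0.30 in the first step and -0.67 in the second. The later step did not show that the 3 d effect was lost, since its standard errors were 0.39 to 0.57.

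**Figure D2:**
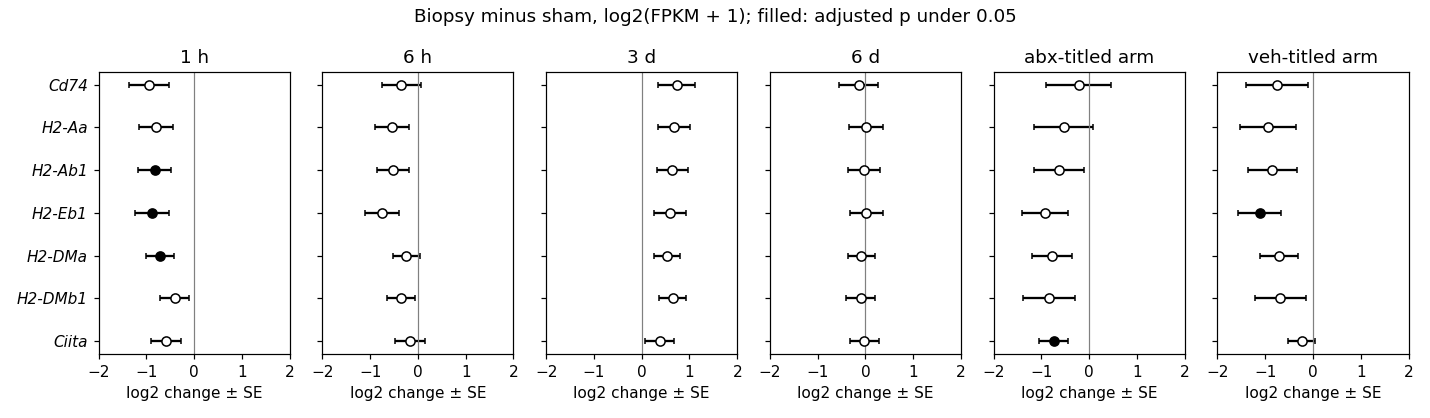
Log2 change of each class II gene, biopsy minus sham, with its standard error on the x axis, for the 4 times and the 2 arms (panels), filled where the adjusted p was under 0.05. The points lie below 0 at 1 h and in both arms, above 0 at 3 d and around 0 at 6 d, and 3 genes at 1 h and 1 gene in each arm are filled.

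Sham tissue itself varied with time. All 7 genes were called in the F test over the 4 sham groups (adjusted p = 2.61e-05 for H2-DMb1 to 0.000317 for H2-Eb1, limma), as were 59% of all tested genes. The shams were highest at 6 d, where Ciita was 3.86, 5.51, 1.11, 3.78 and 1.96 FPKM, against 0.417, 0.312, 0.286, 0.708 and 0.317 FPKM at 6 h and 0.150, 0.518, 0.444, 0.438 and 0.231 FPKM at 3 d. H2-Aa was 145, 313, 101, 232 and 89.1 FPKM at 6 d, 65.5, 64.8, 41.8, 56.5 and 53.1 FPKM at 6 h and 35.3 to 89.6 FPKM at 3 d. The lowest 6 d sham lay above the highest 6 h sham in both genes.

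Against 6 h, 7 of 7 genes rose at 6 d, beside 6.73% of all tested genes called higher (8.15% after median of ratios scaling). All 7 were higher in every 6 d sham than in any 6 h sham, which 6.25% of all tested genes were. The changes ranged from 1.31 ± 0.28 for H2-DMa (SE, adjusted p = 0.000771) to 1.80 ± 0.41 for Cd74 (adjusted p = 0.00127), with a median of 1.48 for the 7 genes and -0.06 over all tested genes. Against 3 d, 7 of 7 rose as well, beside 5.41% of all tested genes called higher (5.49% after quantile normalization, where the lower share of calls went from 50.7% to 62.7%). In 6 of 7, all but H2-Aa, every 6 d sham lay above every 3 d sham, beside 4.58% of all tested genes. Cd74 changed most (2.01 ± 0.41, adjusted p = 0.000889) and H2-Eb1 least (1.47 ± 0.35, adjusted p = 0.00468), and the medians were 1.51 and 0.01.

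The rise at 6 d was called for every tested member under each alternative, among them the fit without libraries rich in B cell genes (1.23 to 1.76 against 6 h) and the fit with a B cell covariate (1.07 to 1.44). Ciita falls below the filter of at least 5 FPKM, where 6 of 6 were called. Leaving out 6 d shams 1 and 4 gave 1.13 to 1.60 against 6 h, with 7 called. These shams were high in class II, with B cell marker sums of 1.07 and 7.37 FPKM. Both sums lay under the 8.06 FPKM cutoff for libraries rich in B cell genes, sham 4 just under it. Other features of the 6 d shams moved too. Summed dendritic cell markers were 43.4 to 65.2 FPKM at 6 d, above all shams at 6 h (27.3 to 32.3 FPKM) and at 3 d (18.8 to 33.2 FPKM). Summed macrophage markers were 269 to 422 FPKM, above all 6 h shams (173 to 254 FPKM) and overlapping the 3 d shams (151 to 273 FPKM), and 3 of 11 of these markers were called higher against 6 h and 8 against 3 d. Symbols of small RNAs took 12.03% to 24.2% of the FPKM there, against 8.02% to 12.7% in the 6 h shams and 7.64% to 20.6% in the 3 d shams, and the part of these features in the class II values was not tested. Collection time, day of processing and mouse age cannot be told apart from the time point, since the labels give no batch.

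The 1 h shams were above the 6 h and 3 d shams. At 6 h, 6 of 7 genes were lower than at 1 h, beside 11.7% of all tested genes called lower (14.8% after median of ratios scaling), with Ciita the exception (-0.33, adjusted p = 0.494). Cd74 changed by -1.33 ± 0.43 (SE, adjusted p = 0.0206) and H2-DMb1 by -0.84 ± 0.31 (adjusted p = 0.042), and the median was -1.22 beside 0.01 over all tested genes. This contrast hung on sham 1 h replicate 1 (Cd74 at 511 FPKM, against 147, 166 and 230 in the others), and without it none was called, at 0.0788 for the lowest adjusted p. At 3 d, 6 of 7 were lower than at 1 h, beside 29% of all tested genes called lower (23.4% after quantile normalization), with Cd74 at -1.54 ± 0.43 (adjusted p = 0.00353), and 5 or 6 were called under each omission of a single library. Of 11 macrophage markers 7 were called lower and 1 higher than at 1 h in both the 6 h and the 3 d shams, with sums of 315 to 470 FPKM at 1 h above all sums at 6 h and 3 d, and their part in the class II values was not tested.

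Of the remaining sham comparisons, 6 d against 1 h gave 1 call of 7, Ciita higher by 1.16 ± 0.33 (SE, adjusted p = 0.00385, limma), beside 17.4% of all tested genes called higher. Leaving out sham 1 h replicate 1 or 5, or sham 6 d replicate 3 or 5, gave 2 calls. Between 6 h and 3 d none was called, none passed an unadjusted p under 0.05, and the changes were -0.21 to -0.03, beside 25.3% of all tested genes called (72.9% of the calls lower, 47.2% after median of ratios scaling). The neighbouring sham levels in the order 3 d, 6 h, 1 h, 6 d thus did not differ beyond their spread between 3 d and 6 h, and apart from Ciita not between 1 h and 6 d.

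In the veh-titled arm at 6 h, class II levels in biopsies lay below those in shams in 6 of 7 genes with no library overlapping, all but Cd74, which held for 41.4% of all tested genes. H2-Eb1 was 20.2 to 31.5 FPKM (median 23.6) in the 6 shams and 9.11 to 12.9 FPKM (median 9.96) in the 6 biopsies. H2-Aa was 43.9 to 60.1 FPKM (median 48.5) and 19.8 to 35.5 FPKM (median 22.8). Ciita was 0.149 to 0.470 FPKM (median 0.238) and 0.0334 to 0.0936 FPKM (median 0.0511). For all 3 genes the lowest sham stood clear of the highest biopsy. Cd74 was 76.6 to 119 FPKM (median 89.7) in shams and 40.3 to 87.2 FPKM (median 47.6) in biopsies, and only biopsy replicate 3 reached the sham range.

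By limma with the spread shared over both arms, 1 of 7 genes was called lower, H2-Eb1 at -1.12 ± 0.46 (SE, adjusted p = 0.0313), beside 49% of all tested genes called lower (33.5% after median of ratios scaling). The other 6 changes were -0.94 (H2-Aa) to -0.24 (Ciita), and the median was -0.76 beside -0.17 over all tested genes. Fitted on the veh-titled libraries alone, which vary less than the abx-titled ones, the same changes passed in 7 of 7 genes (adjusted p = 3.26e-07 to 0.00256). After median of ratios scaling H2-Eb1 was at -0.88 (adjusted p = 0.0855), and the median was -0.55 beside 0.03. H2-Eb1 also missed the threshold without biopsy 6 or without sham 6. Macrophage marker sums were 146 to 172 FPKM in shams and 77.6 to 115 FPKM in biopsies and dendritic marker sums 15.2 to 18.5 FPKM and 10.1 to 13.6 FPKM, without overlap, and epithelial marker sums were 4013 to 4367 FPKM in shams and 5811 to 6930 FPKM in biopsies. The part of these in the class II values was not tested.

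In the abx-titled arm the libraries of each group were spread too widely for most comparisons. Cd74 was 36.8 to 1101 FPKM (median 301) in the 6 shams and 173, 39.9, 477, 270 and 515 FPKM in the 5 biopsies. Ciita was 0.0479 to 4.29 FPKM (median 1.48) in shams and 0.345, 0.0436, 0.171, 1.35 and 0.464 FPKM in biopsies. The groups overlapped in both genes, but the highest shams lay above every biopsy, shams 2 and 5 for Cd74 and shams 2, 3 and 5 for Ciita. Ciita was the 1 gene of 7 called lower, at -0.75 ± 0.30 (SE, adjusted p = 0.031, limma), beside 43.9% of all tested genes called lower (34.2% after median of ratios scaling). The other changes ran from -0.93 (H2-Eb1, adjusted p = 0.0877) to -0.22 (Cd74, adjusted p = 0.777), and the median was -0.75 beside -0.12 over all tested genes. Without abx-titled shams 2 and 5, the highest class II libraries of the arm, Ciita was not called and Cd74 turned to 0.74 (adjusted p = 0.283), values from an alternative chosen after the data were seen. No gene was called without biopsy 2, 3 or 4 or sham 2, 3 or 5, while 4 were called without sham 4, the lowest sham, and 3 without sham 6. In this arm 3 of 11 macrophage markers were called higher and 6 lower, beside 26.5% and 43.9% of all tested genes. Epithelial markers were called higher in 7 of 8, with sums of 5588 to 6834 FPKM in biopsies and 3735 to 4512 FPKM in shams. The part of these markers in the class II values was not tested.

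**Figure D3:**
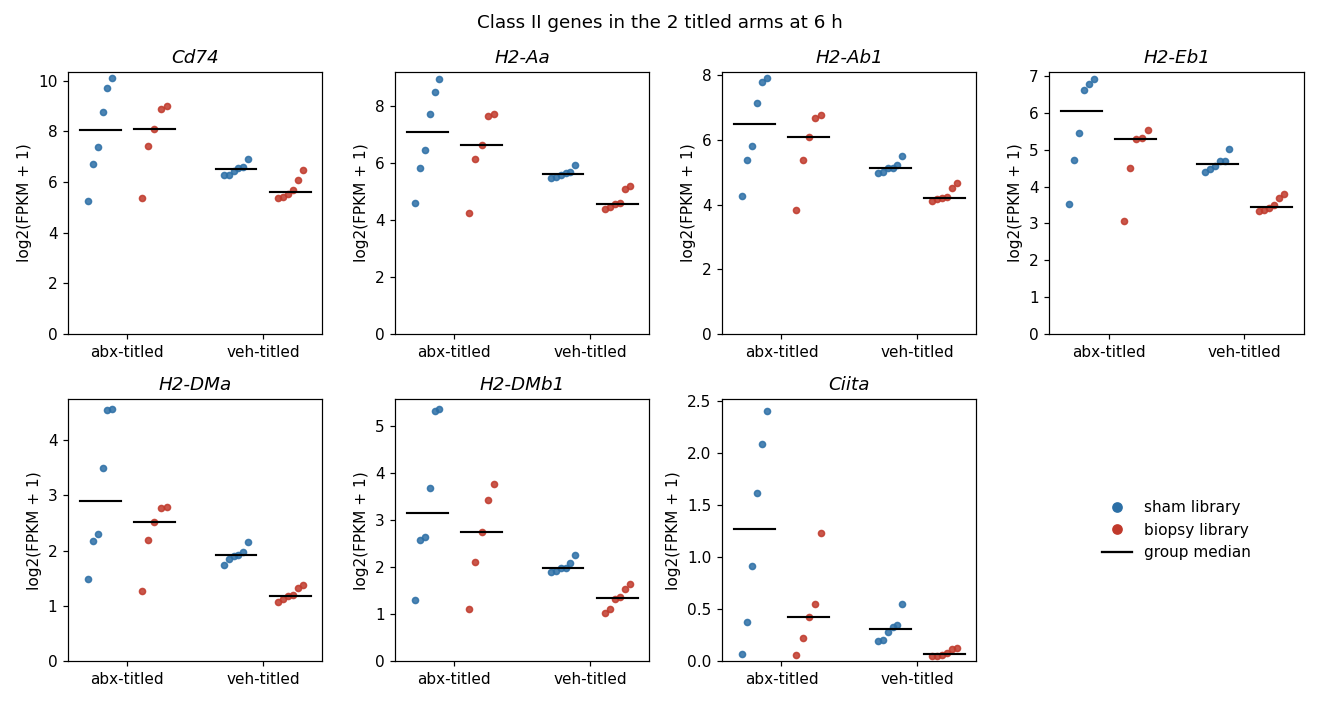
FPKM of the 7 class II genes in the 2 titled arms at 6 h, as log2(FPKM + 1) on the y axis, with 1 point per sham (blue) or biopsy (red) library and a bar at the group median. The veh-titled libraries are tightly grouped, with biopsies below shams for every gene but Cd74, whereas abx-titled libraries span 36.8 to 1101 FPKM of Cd74.

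Between the arms the biopsy effect was not found to differ, with 0 of 7 genes called, none at an unadjusted p under 0.05, and 3.31% of all tested genes called (20.7% of the calls lower, 63.3% after median of ratios scaling). The difference, abx-titled minus veh-titled, was 0.53 ± 0.94 (SE) for Cd74 and -0.51 ± 0.42 for Ciita, and the median was 0.19. Errors of this size do not show that the arms responded alike.

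Levels were compared between the arms as well. Among shams, 1 of 7 genes was called higher in the abx-titled arm, Ciita at 0.93 ± 0.29 (SE, adjusted p = 0.0361, limma), beside 3.38% of all tested genes called higher (5.5% after median of ratios scaling). The other 6 were at 1.03 (H2-Eb1) to 1.47 (Cd74) with adjusted p from 0.0557 to 0.145. All 7 were called without abx-titled sham 4, 3 without abx-titled sham 1 and 2 without abx-titled sham 6, while omission of abx-titled sham 2, 3 or 5 or of veh-titled sham 1, 2, 3, 4 or 5 left none. Among biopsies, 1 of 7 was called higher, Cd74 at 2.01 ± 0.68 (adjusted p = 0.05), beside 7.82% of all tested genes called higher (6.17% after median of ratios scaling), and the median was 1.30 beside 0.01. The veh-titled biopsies held 40.3 to 87.2 FPKM of Cd74, and 4 of the 5 abx-titled biopsies lay above all of them. Abx-titled biopsy replicate 3, at 39.9 FPKM, was the exception, and without it 6 of 7 genes were called, while omission of any other abx-titled biopsy, or of veh-titled biopsy 1, 2, 4, 5 or 6, left none. Omitting the B cell-rich libraries, which were abx-titled shams 1, 2 and 3 and abx-titled biopsy 5, left none called in either comparison. Fitting a B cell covariate left none called either. The largest change among biopsies was 1.92 after that omission and 1.84 with the covariate, beside 2.01 in the main fit. The part of B cells in the differences between arms was not tested.

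At 6 h, H2-Eb1 relative to Cd74 was lower in every biopsy than in every sham of the time course and of the veh-titled arm. How often the ratio of other pairs of genes separates these groups was not examined. The level of H2-Eb1 relative to Cd74 within a library, a ratio chosen after the values were seen and given without a test, was 0.186 to 0.242 in the 6 h biopsies of the time course and 0.266 to 0.315 in the 6 h shams. In the veh-titled arm it was 0.148 to 0.228 in biopsies and 0.262 to 0.276 in shams, again without overlap. In the abx-titled arm it was 0.0815 to 0.185 in biopsies and 0.109 to 0.287 in shams, and the lowest shams reached the biopsy range. No such separation was seen at the other times, where the biopsy and sham ranges overlapped at 1 h (0.218 to 0.337 and 0.266 to 0.299), at 3 d (0.274 to 0.316 and 0.301 to 0.357) and at 6 d (0.222 to 0.274 and 0.185 to 0.266). H2-Aa relative to Cd74 was 0.475 to 0.586 in the 6 h biopsies and 0.540 to 0.684 in shams, which overlapped.

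**Figure D4:**
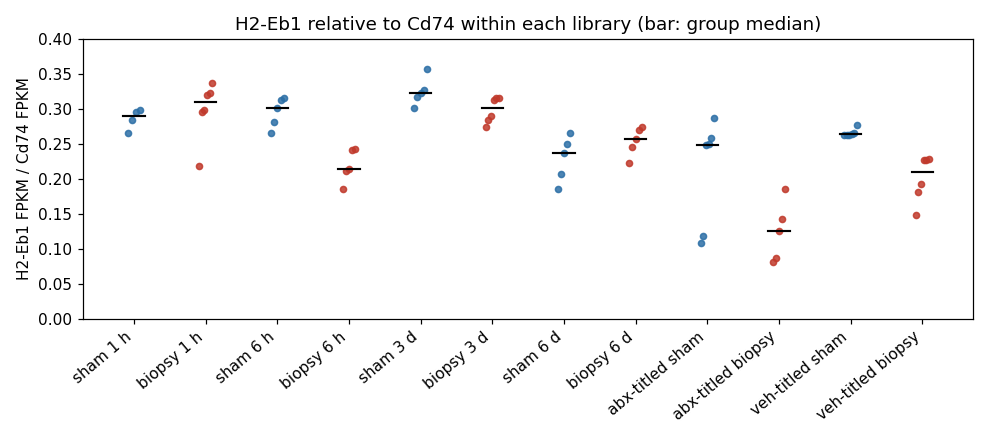
H2-Eb1 FPKM divided by Cd74 FPKM in each library (y axis) by group (x axis), with shams in blue, biopsies in red and a bar at the group median. At 6 h the biopsies of the time course (0.186 to 0.242) and of the veh-titled arm (0.148 to 0.228) lie below their shams.

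Libraries high in class II RNA were of more than one kind. In 4 libraries with high class II levels B cell markers were also high. These were biopsy 6 d replicate 3 (Cd74 at 1211 FPKM, sum of 10 B cell markers 436 FPKM), sham 6 d replicate 2 (658 and 159 FPKM), sham 1 h replicate 1 (511 and 102 FPKM) and abx-titled sham replicate 3 (436 and 98.7 FPKM). H2-Oa, a chain of the H2-DM inhibitor that is known from B cells, was at 24.1, 11.2, 8.21 and 9.51 FPKM in the same 4 libraries. The median sum of these markers over all libraries was 2.69 FPKM in the time course and 2.35 FPKM in the arms.

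Other libraries had high class II with far lower B cell marker sums, though some of these sums were above the cohort median. Abx-titled sham replicate 5 held 831 FPKM of Cd74 with a B cell marker sum of 1.00 FPKM and H2-Oa at 0.247 FPKM. Abx-titled biopsies 4 and 6 held 477 and 515 FPKM of Cd74 with sums of 2.47 and 5.63 FPKM, and sham 6 d replicates 1 and 4 held 298 and 520 FPKM with sums of 1.07 and 7.37 FPKM. Abx-titled sham replicate 2, with the most Cd74 of its cohort (1101 FPKM), had a sum of 7.73 FPKM, just past the 7.05 FPKM above which a library of the arms counted as rich in B cell genes. Irf1, a transcription factor induced by interferons, was 133 and 73.6 FPKM in abx-titled shams 5 and 2 and 22.4 to 31.0 FPKM in the other 4 abx-titled shams. The ratio of H2-Eb1 to Cd74 was lowest of all 64 libraries in abx-titled biopsies 4 and 6 (0.0815 and 0.0872), followed by abx-titled shams 2 and 5 (0.109 and 0.117).

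Irf1 differed between times too. It was 131 to 177 FPKM in the 6 d shams and 146 to 172 FPKM in the 6 d biopsies, against 57.7 to 86.8 FPKM in the time course shams of other times. Ifng itself was at most 0.321 FPKM in any library, too low to be tested.

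**Figure D5:**
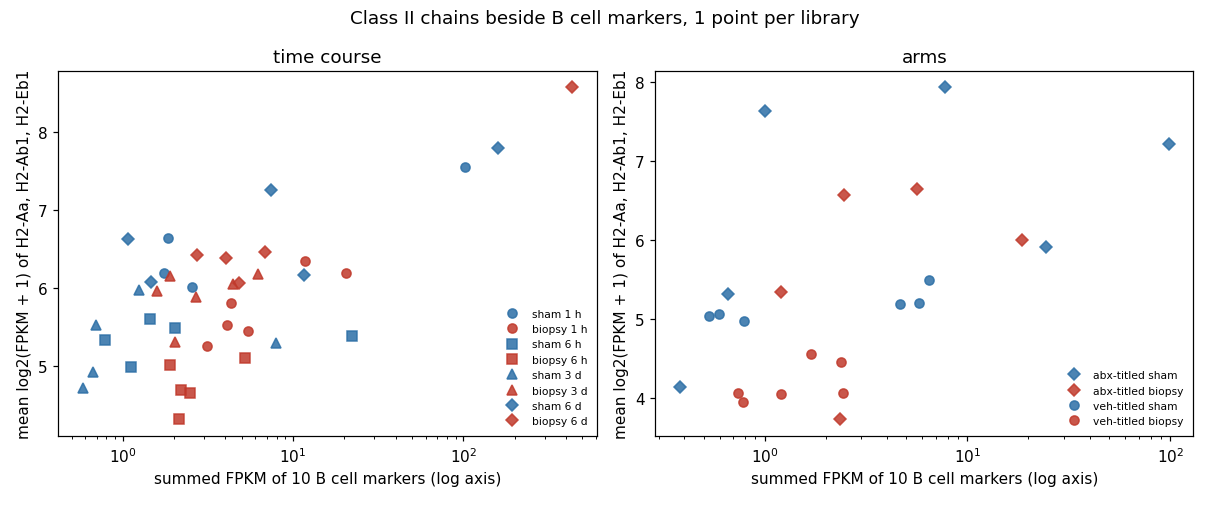
Mean log2(FPKM + 1) of H2-Aa, H2-Ab1 and H2-Eb1 (y axis) against the summed FPKM of 10 B cell markers on a log axis, with 1 point per library of the time course (left) and the arms (right). Libraries with B cell marker sums near 100 FPKM or more are high in class II, and other libraries are high with sums under 8 FPKM.

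The genes whose levels most resembled the mean of H2-Aa, H2-Ab1 and H2-Eb1 across libraries, after removal of group means, differed between the cohorts. In the time course (41 libraries) they were Irf5 (r = 0.905), Laptm5 (0.902), Cybb, Arhgdib, Nckap1l, Cd4 (0.893), Itgb2, Cd84, Amz1 and Sla (0.890). Several of these are leukocyte genes, such as Cybb of the phagocyte oxidase and Itgb2, the leukocyte integrin beta chain. In the arms (23 libraries) they were Ubd (0.941), a ubiquitin-like protein gene, H2-Q9 (0.933) and H2-Q5 (0.926), which are class I genes, then C4b, C1qb, Unc93b1, Prkd2, Sulf2, C920025E04Rik and Btnl2 (0.842). Points of a cohort share depth and tissue mix, and H2-Q9 and H2-Q5 have near-identical relatives that reads may be split with.

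Regulators of class II transcription were called in both directions in biopsy against sham, mostly in shares near those of all tested genes. Of 15 tested (16 listed), 2 were higher and 9 lower at 1 h, beside 9.38% and 45% of all tested genes, led by Socs1 (1.35, adjusted p = 4.64e-08), an inhibitor of interferon signalling, Irf1 (-1.13, adjusted p = 1.79e-05), Irf2 (-0.74) and Rfx5 (-0.63), a subunit of the X box factor. At 6 h 3 were higher and 6 lower, beside 24.3% and 43.2% of all tested genes, with Socs1 at 1.92 (adjusted p = 7.9e-12), Rfx5 at -0.44 and Ifngr1, a chain of the interferon gamma receptor, at -0.43. At 3 d and at 6 d 4 were higher and 2 lower, all within 0.44 of 0, beside 32.1% and 10.5% of all tested genes at 3 d and 34.1% and 10.2% at 6 d. In the arms 4 were higher and 6 lower (abx-titled, beside 26.5% and 43.9% of all tested genes) or 4 higher and 9 lower (veh-titled, beside 25.7% and 49%), and Rfx5, picked for the veh-titled arm after its values were seen, had log2 changes of -0.49 (adjusted p = 3.55e-06) and -0.59 (adjusted p = 1.17e-07). In the 6 d shams against the 3 d shams 4 of 15 were higher, among them Socs1 (1.32) and Irf1 (0.99), and 1 was lower, Creb1 (-0.27). Of all tested genes 5.41% were higher and 5.57% lower there. Against the 6 h shams 8 of 15 were higher and 2 lower, beside 6.73% and 19.3% of all tested genes. The median over the list was -0.46 at 1 h and 0.00 at 6 h, beside -0.18 and -0.12 over all tested genes.

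Genes of antigen processing and class II turnover were called lower more often than higher at 1 h, 6 h and in the arms, and higher at 3 d, a balance that all tested genes shared. Of all calls, 82.7%, 64%, 62.3% and 65.6% were lower at 1 h, at 6 h and in the abx-titled and veh-titled arms and 24.7% at 3 d, each between 46.6% and 49.9% after median of ratios scaling. Of 9 tested (10 of 12 listed symbols were in the files), none was higher and 6 were lower at 1 h, with Lgmn, an endosomal protease, at -0.50 and March8, a ubiquitin ligase known to remove class II from the surface, at -0.44. At 6 h 1 was higher, the protease Ctsl (0.66, adjusted p = 3.54e-12), and 5 were lower, among them March8 (-0.69), Ctsd (-0.41) and Ifi30 (-0.39), the lysosomal thiol reductase. At 3 d 5 were higher and none lower, led by Lgmn (1.17, adjusted p = 3.52e-10) and Sppl2a (0.51), which clears the last fragment of the invariant chain. At 6 d Lgmn (0.72), Sppl2a (0.52) and 2 others were higher and Ctss (-0.47), the protease that trims the invariant chain, was lower. In the arms 1 was higher and 6 (abx-titled) or 7 (veh-titled) were lower, with March8 at -0.70 and -0.88. The list medians were -0.18, -0.19, 0.17 and 0.12 at 1 h, 6 h, 3 d and 6 d, beside -0.18, -0.12, 0.09 and 0.11 over all tested genes.

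Costimulatory genes, whose products act with class II on T cells, were called higher at 6 h in 4 of 7, beside 24.3% of all tested genes (32.5% after median of ratios scaling). They were Cd274 (1.75, adjusted p = 1.06e-08), which encodes the inhibitory ligand PD-L1, Cd40 (1.04), Cd80 (0.99) and Cd86 (0.74), with a list median of 0.74. At 1 h 2 of 7 were lower, Cd4 (-0.54) and Icosl (-0.41), beside 45% of all tested genes. At 3 d 3 of 7 were higher, Cd40, Cd86 and Cd80 (0.45 to 0.58), beside 32.1% of all tested genes. At 6 d 3 of 7 were higher, beside 34.1% of all tested genes. Lag3, a class II receptor of T cells, was at 0.47, with Cd80 and Cd86 at 0.42 and 0.36. In the 6 d shams Cd274 was the 1 gene of 7 that rose, by 2.13 against 6 h and by 1.93 against 3 d. Of all tested genes 6.73% and 5.41% were called higher in these contrasts.

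Of the less common class II chains, H2-DMb2 reached 5.19 FPKM in libraries not rich in B cell genes (sham 6 d replicate 4), and H2-Oa, H2-Ob and H2-Eb2 reached 1.28, 1.00 and 0.257 FPKM there. H2-Oa and H2-Ob, which form the inhibitor of H2-DM, reached 24.1 and 37.8 FPKM in biopsy 6 d replicate 3. Of 5 such symbols 3 were tested in the time course, with no call for biopsy against sham at any time, and 1 in the arms, H2-DMb2, which was lower in the abx-titled biopsies (-1.08, adjusted p = 0.035). H2-Ea-ps, the pseudogene of the E alpha chain in this strain, was listed above 0 in 3 of 64 libraries, at 0.0824 FPKM or less. Ciita lies on chr16:10480059-10528418 (plus strand) and Cd74 on chr18:60803848-60812652 (plus strand), apart from the chromosome 17 cluster that the chains and H2-DM genes share.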

How the data were processed

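The deposited values are FPKM per gene symbol, made by the authors, with 1 file for each of 64 libraries. Reads were handled with STAR and Cufflinks against mm10, per the submitters' processing notes; the sources used here give no versions or annotation. RNA was extracted with an RNeasy kit, selected for poly(A) and made into libraries with TotalScript, per the labels' protocols. Depth is unknown, so no counting intervals are given. Libraries were grouped by title. Within each cohort, genes reaching 1 FPKM in 4 or more libraries were tested on log2(FPKM + 1) in 1 limma fit per cohort (33 and 19 residual degrees of freedom), adjusted by Benjamini-Hochberg over all tested genes and called at an adjusted p under 0.05. The fit was tested on simulated data. The members and the 13 gene lists were chosen with earlier results of these data known. All members were named, with at most 4 called genes of largest change per other list and comparison, all other class II chains, and the 10 most similar genes per cohort. Listed symbols matched in 112 of 115 entries. Libraries with a B cell marker sum over 3 times the cohort median (7 and 4) were called rich in B cell genes. Alternatives changed the pseudocount (0.1), filter (none, 5 FPKM), scaling, array weights, replicate block, B cell libraries or covariate, groups in the fit, and left out each library. Promoter windows came from RefSeq, positions from GENCODE vM21. R 4.3.3, limma 3.58.1, Python 3.11.15, numpy 2.4.6, pandas 2.3.3 and matplotlib 3.10.9 were used. One gene of the regulator list is counted but its values are not reported here.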

Additional observations from a re-analysis of the deposited data

Results flagged for a closer look

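In 8 of 84 sets of a gene and a group, 1 library stood far from the others in FPKM. The cutoff for such a gap is passed by chance in about 1 of 20 sets if values are normally distributed. FPKM need not be, so the count is not set against chance. In 7 of them it was biopsy 6 d replicate 3, with Cd74 at 1211 FPKM, H2-Aa at 548 FPKM, H2-Ab1 at 369.7 FPKM, H2-Eb1 at 269 FPKM, H2-DMa at 32.8 FPKM, H2-DMb1 at 39.8 FPKM and Ciita at 12.8 FPKM. The genes share that library, so these are not separate observations. Its B cell marker sum was 436 FPKM, and the part of this in the class II values was not tested. The other was biopsy 1 h replicate 3, with H2-DMb1 at 13.8 FPKM.

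The biopsy effect differed between 6 h and 3 d by a test of the difference itself in 4 genes, on the log2 scale by 1.22 for H2-Aa, 1.16 for H2-Ab1, 1.35 for H2-Eb1 and 1.01 for H2-DMb1 (adjusted p = 0.0199 to 0.0379, limma). Of all tested genes 41.2% were called higher in the same contrast. None of the 7 class II genes was called after median of ratios scaling, and 1 was called with no filter or after quantile normalization.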

How the results depend on the processing

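Of 3110 values of single class II genes under alternatives, 2872 kept their side of the threshold, 116 lost and 122 gained a call. None that was called changed sign. Among values called neither in the main fit nor under the alternative, 116 turned sign, in 27 of 133 results of a gene and a comparison. The F test over shams, the 6 d shams against 6 h and 3 d, and the 3 d shams against 1 h kept their counts within 1.5 times under every alternative run. Counts of called genes moved as follows. For 1 h (3 called) there were 0 with no filter, median of ratios scaling or quantile normalization, 6 with array weights or a B cell covariate, and 5 without B cell libraries, with 0 to 5 when single libraries were left out. For 6 h (0) there was 1 with a pseudocount of 0.1, array weights or the covariate and 3 without B cell libraries or with only the groups compared (0 to 1 leaving out single libraries). For 3 d (0) the counts were 1 with a pseudocount of 0.1, 4 with array weights, 7 without B cell libraries, 6 with the covariate and 5 with only the groups compared (0 to 1). For 6 d (0) there was 1 without B cell libraries. The change from 6 h to 3 d (4) gave 1 with no filter or quantile normalization, 0 with median of ratios scaling and 7 without B cell libraries or with only the groups compared (1 to 4). The change from 3 d to 6 d (0) gave 1 with array weights and 2 without B cell libraries. Shams at 6 d against 1 h (1) gave 0 with the 5 FPKM filter, 2 with array weights or the covariate and 3 without B cell libraries (1 to 2), and shams at 6 h against 1 h (6) gave 0 to 6 leaving out single libraries.

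In the abx-titled arm (1) there were 0 with a pseudocount of 0.1, the 5 FPKM filter, no B cell libraries, the covariate, only the groups compared or without abx-titled shams 2 and 5 (0 to 4 leaving out single libraries). In the veh-titled arm (1) there were 0 with median of ratios scaling, 4 with array weights, 7 with only the groups compared and 2 without abx-titled shams 2 and 5 (0 to 1). Shams between arms (1) gave 2 with quantile normalization and 0 with a pseudocount of 0.1, no filter, the 5 FPKM filter, array weights, no B cell libraries, the covariate, only the groups compared or without shams 2 and 5 (0 to 7). Biopsies between arms (1) gave 2 with a pseudocount of 0.1 or the 5 FPKM filter, 6 with array weights, only the groups compared or without shams 2 and 5, and 0 with no filter, no B cell libraries or the covariate (0 to 6). Omission of 6 d shams 1 and 4 and of abx-titled shams 2 and 5 was chosen after seeing the data. The cause of these moves was not tested.

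With a replicate block, 5 genes were called at 1 h and 0 in the veh-titled arm, and no other count moved by over 1.5 times. In the time course a block was a replicate number over all groups, so libraries of different times shared it. Same-numbered samples share only a number: correlations of their deviations were -0.282 to 0.254, and 4 of 18 biopsies in the time course and 1 of 11 in the arms correlated best with their own number. Between arms no block could be fitted, since each block there was a number within 1 arm. Unknown depth limits what can be said of Ciita, which lay under 1 FPKM in most libraries.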
